A study of Mus musculus with 6 samples.

Results

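The genes described here form the Toll-like receptor and NF-kB pathway: the receptors that sense microbial molecules, the adaptors and kinases behind them, the NOD receptors and the inflammasome, the NF-kB transcription factors, their inhibitors and a pair of output genes. The list held 48 genes, chosen by gene symbol for their known place in the pathway or as reported miR-155 targets, and 43 of them had a row among the 14860 genes tested. Irak4, Chuk, Ripk2, Nfkb1 and Relb had no row naming them alone and were not analysed here. The groups were 3 arrays of miR-155 KO cells and 3 arrays of WT cells, both C57Bl/6. Both were primary cultures of bone marrow progenitors from female mice treated with 5-FU (fluorouracil) at 12 weeks of age. Both groups carried Hoxa9 and Meis1, transcription factors that together transform myeloid progenitors, from retroviral MSCV vectors. Both grew in 15% FCS with IL3, SCF and IL6. Whether those factors act alike in the KO and WT cells was not tested. No agonist of a Toll-like receptor is named in the labels. The comparison asks whether transcripts of this pathway differ when the transduced progenitors lack miR-155.

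Toll-like receptors at the cell surface recognise bacterial lipids and proteins, and those in endosomes recognise nucleic acids or parasite and bacterial products. Most signal through the adaptor MyD88 to IRAK kinases, TRAF6, the TAK1 kinase and the IKK kinases, which mark IkB proteins for destruction and free NF-kB to enter the nucleus. NF-kB then raises genes for its own inhibitors, which end the signal, and NF-kB induced by these receptors is known to raise miR-155 in macrophages. In return, miR-155 is reported to lower several mRNAs of the pathway.

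MicroRNAs recognise their target mRNAs mainly through bases 2 to 8, the seed, and the 5p mature sequence of miR-155 is shown for that reason, with the seed in capitals (RefSeq, GRCm38.p6, chr16:84714143-84714165, plus strand).
mmu-miR-155-5p: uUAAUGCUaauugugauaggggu
The same gene also gives mmu-miR-155-3p, whose seed is UCCUACC and whose full sequence is not shown. The transcript sequences that would show which of the genes below hold a match to either seed were not used here. The deleted gene was not checked here, since neither Mir155 nor Mir155hg had a row naming it alone.

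No gene of the pathway passed the test in the knockout. Of the 43 measured genes, limma called 0 at an adjusted p under 0.05, with 3 at an unadjusted p under 0.05, and the smallest adjusted p was 0.488. The background share called over all genes was 0.0269% by the first rule and 7.23% by the second, against 6.98% of the pathway genes by the second. All 3 of these genes (Nfkbie, Tnip1 and Ikbke) were lower in the knockout, where 5.44% of all genes were. That count depended on knockout 3. Without that array 9 of the 43 genes, 20.9%, were at an unadjusted p under 0.05, against 7.72% of all genes, and 6 of them were higher (Tlr7, Tlr13, Peli1, Nlrp3, Malt1 and Rel) and 3 lower (Tlr12, Nfkbie and Tnip1). The higher ones were 14% of the pathway genes, against 2.5% of all genes, and none of the 9 passed the adjusted test, where the smallest adjusted p was 0.434 (limma). Knockout 3 was the lowest knockout array in all 6 higher genes, so leaving it out raises their differences by construction. No conclusion is drawn from that count. With any other single array left out, 2 to 5 pathway genes, 4.65% to 11.6%, were at an unadjusted p under 0.05. The shares of all genes were then 4.97% to 9.93%, and 0 or 1 of the pathway genes was higher. The median difference of the 43 genes, knockout minus wild type on the log2 scale, was −0.03, and the median over all genes tested was also −0.03. There were 20 pathway genes above 0, 46.5% against 39% of all genes, and 23 below. For 39 of the 43 genes the 95% interval of the difference lay within ±0.585, the log2 value of a 1.5-fold change, a share of 90.7% against 90.4% of all genes. The 4 genes with wider intervals were Tlr7, Tlr8, Tlr13 and Ptgs2, and Ptgs2 was the 1 gene whose difference itself exceeded that size.

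**Figure D1:**
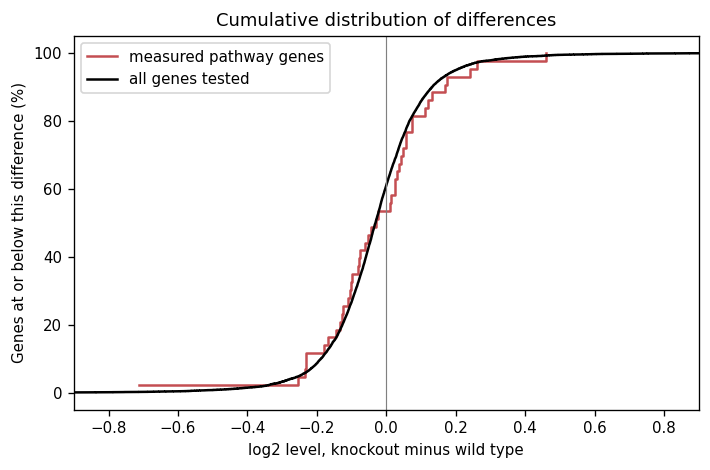
Cumulative share of genes, in percent, against the log2 difference between knockout and wild type, for the 43 measured pathway genes (red) and all 14860 genes tested (black). The curves run close together and both have a median of −0.03.

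Knockout and wild-type values were fully separate in 8 of the 43 genes, 18.6%, against 13.3% of all genes. The knockout was lower in 6 of them, 14% of the pathway genes against 10.4% of all genes, and higher in 2, 4.65% against 2.88%. These shares lie near the background and are not a result about the pathway. Standard errors of the pathway genes had a median of 0.10, and differences of about that size were not detectable with these arrays. Larger ones also did not pass. Nfkbie, at −0.23 (SE 0.067), had an adjusted p of 0.488 (limma). Outside the list Adgre1, at −0.82, had one of 0.086 (limma). The series' design text calls the experiments independent without naming animals, so the tests measure the spread between these arrays.

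**Figure D2:**
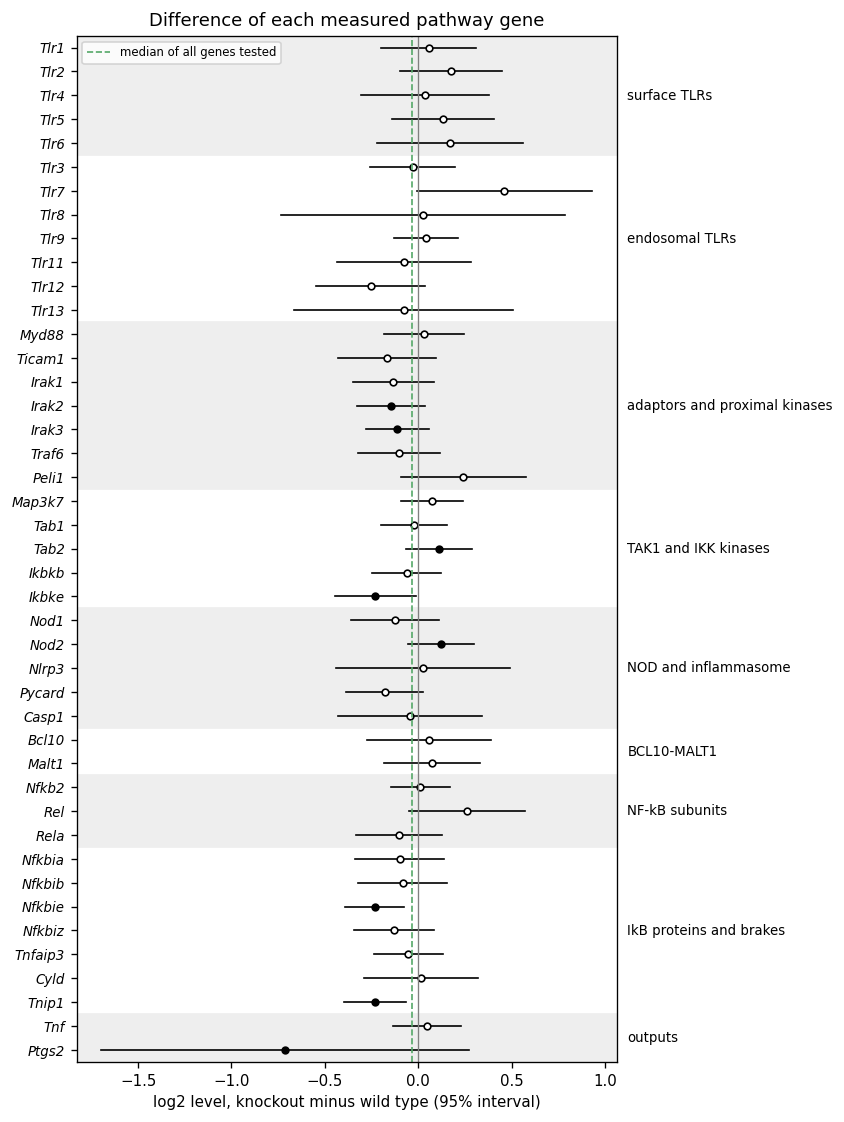
Difference of each measured gene, knockout minus wild type, on the log2 scale (points) with its 95% interval (lines), grouped by pathway step. Filled points are the 8 genes whose groups do not overlap, and the dashed line is the median of all genes tested, at −0.03.

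The surface receptors lay slightly above 0 as a group without any member passing the test. All 5 (Tlr1, Tlr2, Tlr4, Tlr5 and Tlr6) had differences between 0.04 and 0.18, with a median of 0.13, where 39% of all genes lay above 0. Their adjusted p-values were at least 0.824 (limma). Tlr4, the receptor for bacterial lipopolysaccharide, read 10.63, 10.43 and 10.23 in the knockout, against 10.38, 10.64 and 10.17 in the wild type. The groups overlapped throughout, and the difference was 0.04 with a 95% interval of −0.31 to 0.38. Tlr2, the receptor for bacterial lipopeptides, read 8.07, 8.36 and 8.06 in the knockout, against 7.82, 8.06 and 8.09 in the wild type. Its highest value was on knockout 2 and its lowest on wild type 1, and the difference was 0.18 with an interval of −0.10 to 0.45. Tlr6, a partner of Tlr2, read 6.597, 6.32 and 6.07 in the knockout, against 6.12, 6.42 and 5.94 in the wild type. Tlr1, the other partner of Tlr2, and Tlr5, the flagellin receptor, had mean levels below 5.98 in both groups. That level is the 95th percentile of 718 olfactory receptor genes, a family not known to be active in blood progenitors, and serves as a rough background. Tlr5 had 5.62, 5.41 and 5.34 in the knockout, against 5.25, 5.53 and 5.20 in the wild type. Leaving out knockout 1 or wild type 3 turned Tlr1 (to −0.0006 and −0.04) and Tlr4 (to −0.06 and −0.08) below 0.

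None of the 7 endosomal receptors passed, their median was −0.03, and 3 of them (Tlr7, Tlr8 and Tlr13) varied widely within the knockout group. Tlr7, a sensor of single-stranded RNA, had 7.64, 7.69 and 7.06 in the knockout, against 7.25, 7.06 and 6.70 in the wild type. Knockout 1 and knockout 2 were above every wild-type array and knockout 3 was among them, and the difference, 0.46 (SE 0.20, interval −0.01 to 0.93), did not pass (limma, adjusted p = 0.701). Without knockout 3 it was 0.66, still with an adjusted p of 0.469. Tlr8, another receptor of the single-stranded RNA sensing family, had 6.02, 6.10 and 4.94 in the knockout, against 5.66, 6.03 and 5.29 in the wild type. Its difference was 0.02 with an interval of −0.74 to 0.79, and it ran between −0.18 without knockout 2 and 0.40 without knockout 3. Mean Tlr8 signal was under the rough background in the knockout as in the wild type. Tlr13, a mouse sensor of bacterial ribosomal RNA, had 8.78, 8.95 and 7.91 in the knockout, against 8.71, 8.54 and 8.62 in the wild type. The wild-type arrays were close together while knockout 3 lay below all the others, and the difference turned from −0.08 to 0.24 when knockout 3 was left out (adjusted p = 0.622). Tlr9, the receptor for unmethylated DNA, read 7.09, 7.14 and 7.01 in the knockout, against 7.09, 7.01 and 7.02 in the wild type. With a difference of 0.04 and an interval of −0.13 to 0.21 it was among the steadier genes of the group. Tlr3, a sensor of double-stranded RNA, and Tlr11 and Tlr12, which recognise parasite profilin, were also under the rough background, and their differences were −0.03, −0.08 and −0.25. Tlr11 had 3.81, 3.40 and 3.86 in the knockout, against 3.55, 3.78 and 3.96 in the wild type. Tlr12 had 5.11, 5.10 and 5.51 in the knockout, against 5.50, 5.40 and 5.57 in the wild type, with knockout 3 alone among the wild-type values (adjusted p = 0.740). Tlr7 and Tlr8 are direct neighbours among the protein-coding genes of the RefSeq table, as are Tlr1 and Tlr6, and Tlr7, Tlr8, Tlr13 and Irak1 are all on the X chromosome.

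The adaptors and the first kinases mostly lay slightly below 0. Of 7 measured genes 2 were above 0, 28.6% against 39% of all genes, and 5 were below. Their median was −0.11 and their smallest adjusted p was 0.765 (limma). Myd88, the adaptor of nearly all Toll-like receptors, read 9.86, 9.86 and 9.96 in the knockout, against 9.86, 9.72 and 10 in the wild type. That placed the groups within each other, with a difference of 0.03 and an interval of −0.18 to 0.24. Ticam1, the adaptor TRIF of the interferon branch, differed by −0.17 with an interval of −0.43 to 0.10. Irak2, a kinase that sustains the signal, had 7.64, 7.83 and 7.68 in the knockout, against 7.84, 7.89 and 7.86 in the wild type. Irak3, the family member that restrains the signal (IRAK-M), had 10.97, 10.89 and 10.83 in the knockout, against 11.04, 11.01 and 10.98 in the wild type. Both genes were lower on the 3 knockout arrays, by a narrow margin, with differences of −0.15 (adjusted p = 0.765) and −0.11 (adjusted p = 0.820). Irak1 and Traf6, which link the receptor complex to TAK1, differed by −0.13 and −0.10 and overlapped. Irak1 had 8.82, 8.97 and 8.72 in the knockout, against 8.95, 8.90 and 9.07 in the wild type. Traf6 had 9.55, 9.58 and 9.31 in the knockout, against 9.54, 9.56 and 9.65 in the wild type, and only knockout 3 lay below the wild-type values.

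At the level of the TAK1 and IKK kinases 5 of 6 listed genes were measured, with a median of −0.02. Map3k7, which encodes TAK1, differed by 0.08, its partner Tab1 by −0.02 and the IKK subunit Ikbkb by −0.06, and all overlapped between the groups. Tab1 had 7.46, 7.58 and 7.52 in the knockout, against 7.47, 7.60 and 7.56 in the wild type. The intervals of these 3 genes lay between −0.25 and 0.24. BCL10 and MALT1, which act together in a signalling complex that activates IKK from antigen and lectin receptors, are encoded by Bcl10 and Malt1, with differences of 0.06 and 0.07. Malt1 read 9.27, 9.27 and 8.91 in the knockout, against 9.09, 9.06 and 9.08 in the wild type, again with knockout 3 lowest.

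Reported targets of miR-155 in the pathway were Ikbke, Tab2, Peli1, Cyld and Bcl10, and they did not share a direction. Of these 5 genes, which miR-155 is reported to lower, 4 were above 0, 80% against 39% of all genes. Their median was 0.06, against −0.03 for all genes. None passed the test, and the smallest adjusted p was 0.658, for the 1 gene below 0. That gene was Ikbke, the IKK-related kinase of the interferon and NF-kB branches, at 8.44, 8.63 and 8.33 in the knockout, against 8.71, 8.74 and 8.65 in the wild type. All knockout arrays were below all wild-type arrays, at a difference of −0.23 (SE 0.093) and an interval of −0.45 to −0.01. Tab2, the adaptor that brings TAK1 to ubiquitin chains, had 10.58, 10.50 and 10.46 in the knockout, against 10.43, 10.45 and 10.32 in the wild type. It was higher in the 3 knockout arrays by 0.11, with an interval of −0.06 to 0.29 (limma, adjusted p = 0.824). Peli1, a ubiquitin ligase that modifies IRAK proteins, had 8.61, 8.56 and 8.23 in the knockout, against 8.23, 8.44 and 8.004 in the wild type. The groups overlapped through knockout 3 and wild type 2, at a difference of 0.24 (SE 0.14, adjusted p = 0.793). Cyld, a deubiquitinase that ends NF-kB signalling, had 8.70, 8.49 and 8.34 in the knockout, against 8.34, 8.72 and 8.43 in the wild type. Bcl10 had 8.31, 7.88 and 8.06 in the knockout, against 8.03, 8.23 and 7.82 in the wild type. For Cyld and Bcl10 the spread within each group was larger than the difference between them, which was 0.01 (interval −0.29 to 0.32) and 0.06 (interval −0.28 to 0.39). All 5 intervals lay within the 1.5-fold range, and the list was put together with earlier results of these arrays known.

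**Figure D3:**
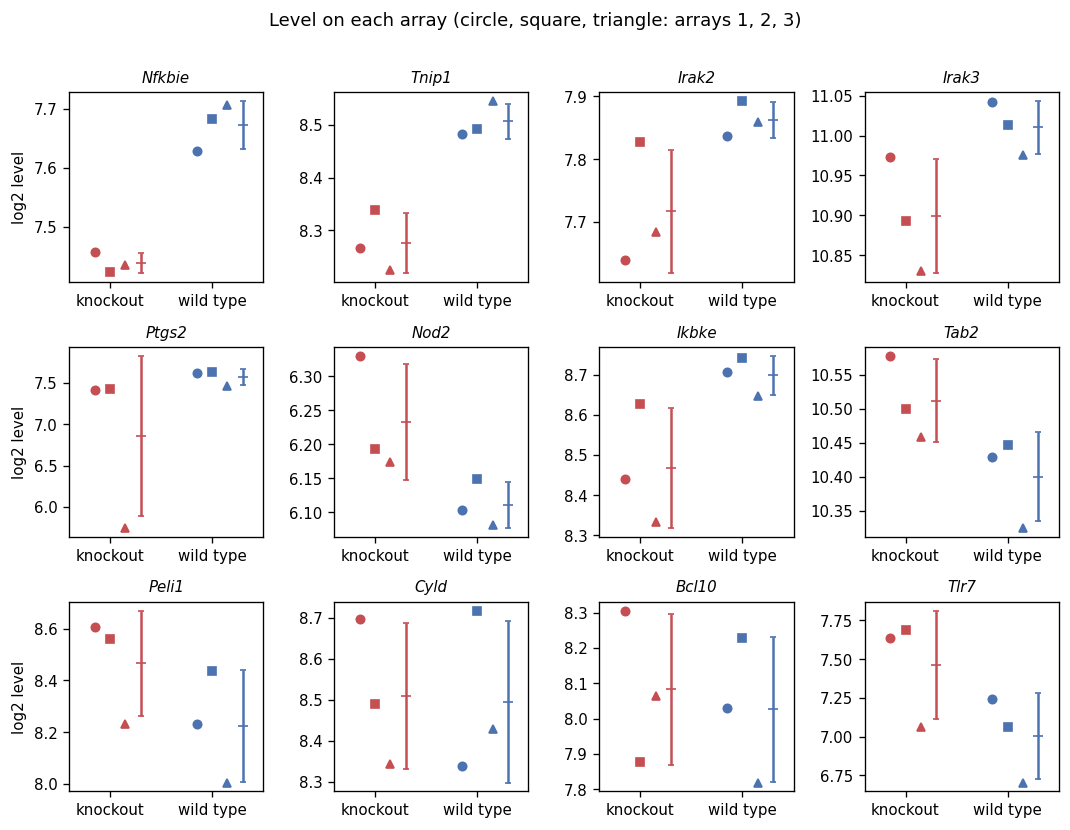
Log2 level on each array for 12 pathway genes, knockout in red on the left and wild type in blue on the right of each panel; circle, square and triangle are arrays 1, 2 and 3, and the bars give the mean ± SD of 3 arrays, on axes that do not start at 0 and differ between panels. Nfkbie and Tnip1 separate the groups by more than their spread, while in Ptgs2 knockout 3 lies far below the other arrays and in Tlr7 it lies among the wild-type arrays, with knockout 1 and knockout 2 above them.

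The NOD receptors and the inflammasome, which sense bacterial wall fragments and damage inside the cell, gave differences between −0.18 and 0.12. Nod2, a receptor for muramyl dipeptide, had 6.33, 6.19 and 6.17 in the knockout, against 6.10, 6.15 and 6.08 in the wild type. The 3 knockout arrays were all the higher ones, by 0.12 on average with an interval of −0.05 to 0.30 (limma, adjusted p = 0.815). Nlrp3, the sensor that assembles the best studied inflammasome, had 7.94, 7.97 and 7.20 in the knockout, against 7.65, 7.77 and 7.61 in the wild type. Knockout 3 was the lowest of all arrays and the other knockout arrays were the highest, so that a difference of 0.02 over all arrays became 0.27 without knockout 3 (adjusted p = 0.558). Pycard, the inflammasome adaptor ASC, read 9.07, 9.23 and 8.97 in the knockout, against 9.23, 9.29 and 9.29 in the wild type, a difference of −0.18 (adjusted p = 0.741). Nod1 and the protease gene Casp1, whose product matures interleukin 1 beta, differed by −0.12 and −0.04.

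Of the NF-kB subunits 3 of 5 were measured and none passed. Rel, the subunit c-Rel of lymphoid and myeloid cells, had 8.78, 8.77 and 8.51 in the knockout, against 8.17, 8.58 and 8.53 in the wild type. Wild type 1 was the lowest array and knockout 3 lay just under the other wild-type arrays, at a difference of 0.26 (SE 0.13, limma, adjusted p = 0.756). Rela, which encodes p65, differed by −0.10 and Nfkb2, which encodes the p100 precursor, by 0.01. Rela had 9.88, 10.08 and 9.79 in the knockout, against 10.13, 9.96 and 9.97 in the wild type, overlapping through knockout 2. Nfkb2 was an even gene, with all 6 arrays between 7.04 and 7.11.

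The smallest p-values of the pathway were in genes that hold NF-kB back. Of the 7 genes listed as IkB proteins and brakes 1 lay above 0 in the knockout, 14.3% against 39% of all genes, and 6 lay below. Their median was −0.10, and 0 passed the adjusted test. Nfkbie, which encodes the inhibitor IkB epsilon, had 7.46, 7.42 and 7.44 in the knockout, against 7.63, 7.68 and 7.71 in the wild type. The knockout arrays lay close together and all below the wild type, by 1.18-fold, which on the log2 scale was −0.23 (SE 0.067) with an interval of −0.39 to −0.08 (limma, adjusted p = 0.488). Tnip1, which encodes ABIN1, a partner of the ubiquitin-editing enzyme A20, had 8.27, 8.34 and 8.22 in the knockout, against 8.48, 8.49 and 8.55 in the wild type. It too was separate in all arrays, 1.17-fold lower, or −0.23 in log2 units, with an interval of −0.40 to −0.07 (adjusted p = 0.538). Both kept their sign when any array was left out, between −0.26 and −0.22 for Nfkbie and between −0.26 and −0.20 for Tnip1. Nfkbia, the best known inhibitor IkB alpha, read 9.07, 9.28 and 8.92 in the knockout, against 9.18, 9.14 and 9.24 in the wild type. Its groups overlapped and its difference of −0.10 had an interval of −0.34 to 0.14. Nfkbib (IkB beta), Nfkbiz (a nuclear IkB family member) and Tnfaip3 (A20) differed by −0.08, −0.13 and −0.05, with overlap in each. Nfkbib had 9.20, 9.41 and 9.43 in the knockout, against 9.43, 9.30 and 9.56 in the wild type. Tnfaip3 had 6.77, 6.68 and 6.70 in the knockout, against 6.73, 6.87 and 6.69 in the wild type.

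The promoters of these feedback genes were read because NF-kB is known to act on several of them. The windows run from 250 bases before to 50 after an annotated start (RefSeq, GRCm38.p6), and the motif searched on both strands was the 10-base kappa-B consensus, made of 3 G, a purine, any 2 bases, 2 pyrimidines and 2 C. Of 39 listed genes with a window 13 held a match, 33.3%. Of the 11894 tested genes with a window 11.4% held one, and of all 32851 windows 8.46%. The members were listed for their place in the NF-kB pathway, and several are textbook NF-kB targets. Nfkbie (chr17:45555450-45555749, plus strand), Tnip1 (chr11:54962891-54963190, minus strand), Nfkbia (chr12:55492598-55492897, minus strand) and Rel (chr11:23770920-23771219, minus strand) are shown because they hold matches, marked in capitals, and yet lay on both sides of 0. In Tnip1 3 matches overlap in 1 stretch, and in Rel 2 overlap.
Nfkbie: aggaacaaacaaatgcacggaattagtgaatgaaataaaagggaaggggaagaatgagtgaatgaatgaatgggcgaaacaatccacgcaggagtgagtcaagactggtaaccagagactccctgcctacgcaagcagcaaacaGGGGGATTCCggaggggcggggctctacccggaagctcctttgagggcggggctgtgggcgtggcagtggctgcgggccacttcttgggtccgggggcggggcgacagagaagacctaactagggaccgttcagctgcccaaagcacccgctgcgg
Tnip1: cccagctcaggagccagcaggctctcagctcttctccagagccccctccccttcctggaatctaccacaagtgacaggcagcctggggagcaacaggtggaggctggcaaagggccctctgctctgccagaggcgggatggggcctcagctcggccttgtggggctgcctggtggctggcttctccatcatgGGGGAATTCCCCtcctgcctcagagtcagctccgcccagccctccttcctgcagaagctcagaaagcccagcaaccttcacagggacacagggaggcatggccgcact
Nfkbia: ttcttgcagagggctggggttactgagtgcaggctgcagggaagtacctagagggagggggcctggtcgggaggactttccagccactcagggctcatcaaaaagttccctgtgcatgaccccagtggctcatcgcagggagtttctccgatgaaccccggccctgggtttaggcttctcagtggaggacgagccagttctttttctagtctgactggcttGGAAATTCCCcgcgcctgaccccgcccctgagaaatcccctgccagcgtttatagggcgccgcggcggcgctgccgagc
Rel: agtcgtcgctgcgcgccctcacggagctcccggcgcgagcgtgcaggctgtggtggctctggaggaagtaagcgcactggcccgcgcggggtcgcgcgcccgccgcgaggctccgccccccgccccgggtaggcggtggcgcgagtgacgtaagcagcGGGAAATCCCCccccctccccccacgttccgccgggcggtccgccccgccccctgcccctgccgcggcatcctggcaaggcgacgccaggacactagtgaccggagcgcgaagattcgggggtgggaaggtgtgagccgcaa
The first 3 of these genes had differences of −0.23, −0.23 and −0.10, and Rel had 0.26. Among the 37 measured genes with a window, the 13 with a match had a median difference of 0.01 and those without one −0.08. Over all tested genes with a window, those with a match had a median of −0.04 and those without −0.03. A match is a description of the letters in the window and does not show that a factor binds there.

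**Figure D4:**
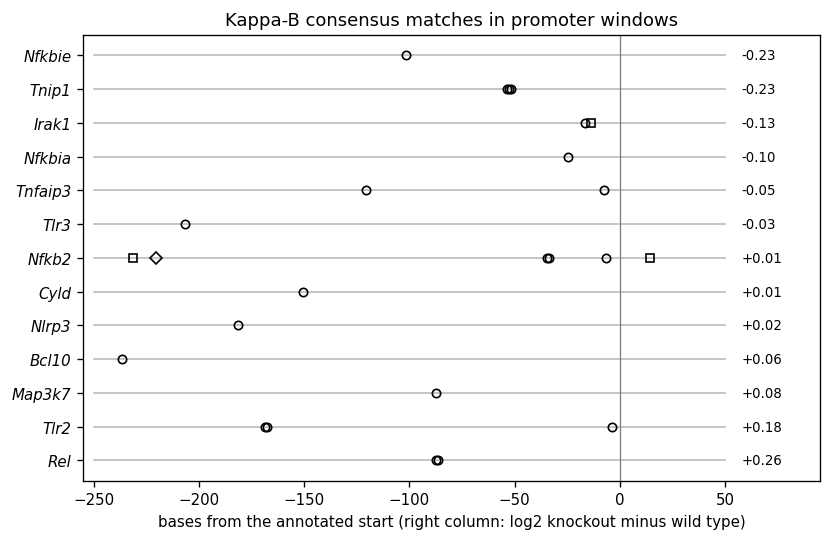
Position of kappa-B consensus matches, in bases from the annotated start, in the promoter windows of the 13 genes that hold one (marker shapes separate several windows of a gene, which can cover the same site), sorted by their log2 difference, which is printed at the right. Genes with a match run from −0.23 (Nfkbie and Tnip1) to 0.26 (Rel).

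The pair of output genes differed in spread. Tnf, the inflammatory cytokine, had 9.06, 9.11 and 9.01 in the knockout, against 9.03, 9.10 and 8.91 in the wild type, a difference of 0.05 with an interval of −0.14 to 0.23. Ptgs2, the inducible prostaglandin synthase COX-2, had 7.41, 7.43 and 5.74 in the knockout, against 7.62, 7.64 and 7.47 in the wild type. Its groups did not overlap, but the distance came from knockout 3, and the difference over all arrays, −0.71 (SE 0.42, limma, adjusted p = 0.796), was −0.15 without that array. The SD of Ptgs2 was 0.97 in the knockout, against 0.09 in the wild type.

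Knockout 3 was below the other knockout arrays in most of the listed genes, and related genes outside the list were also low there. It was the lowest of the 6 arrays in 18 of the 43 genes, 41.9%, against 23.1% of all genes, and the highest in 0, against 15.2% of all genes. Set against the mean of knockout 1 and knockout 2 it was lower in 37 of the 43 genes, with a median of −0.16, and in 51.6% of all genes, with a median of −0.008. The genes furthest below were Ptgs2 (−1.68), Tlr8 (−1.12), Tlr13 (−0.96), Nlrp3 (−0.75) and Tlr7 (−0.60). Wild type 3 was also often low, as the lowest of the 6 arrays in 12 of the 43 genes, 27.9%, against 13.9% of all genes. Within the wild-type group it was the lowest array in 20 of the 43 genes, 46.5%, against 29.4% of all genes. Within the knockout group, knockout 3 was the lowest in 30 of the 43 genes, 69.8%, against 39.5% of all genes. Further NF-kB signalling genes summed to 175.5, 175.6 and 172.5 on the log2 scale in the knockout, against 175.1, 176.6 and 174.5 in the wild type. NF-kB target genes summed to 216.8, 216.9 and 212.2 in the knockout, against 217.7, 217.5 and 217.2 in the wild type. Co-receptors and chaperones of the receptors summed to 108.4, 109.6 and 105.1 in the knockout, against 108.2, 108.5 and 107.03 in the wild type, and further inflammasome genes to 66.4, 66.1 and 63.5 in the knockout, against 64.5, 65.99 and 63.7 in the wild type. All 4 of these lists were lowest on knockout 3, so the low values of that array are not particular to the listed genes. These are descriptions of single arrays, and the genes of one array share its RNA.

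**Figure D5:**
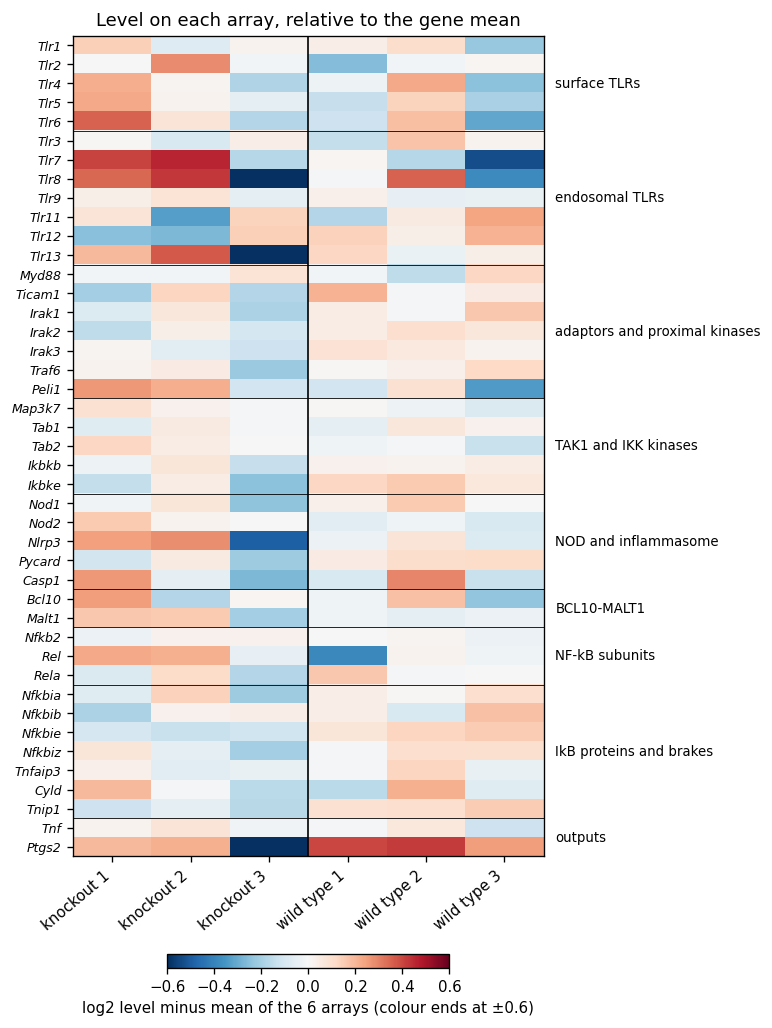
Log2 level of each measured gene on each array, minus the mean of the gene over the 6 arrays, with knockout arrays on the left (red above the mean, blue below). Knockout 3 is blue in most rows, deepest in Ptgs2, Tlr8, Tlr13 and Nlrp3, and Nfkbie and Tnip1 are blue in the 3 knockout arrays.

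The summed markers of monocytes and macrophages and of mast cells and basophils moved with that array, while those of neutrophils and dendritic cells lay close to the other arrays. All 12 measured monocyte and macrophage markers (of 16 listed) had levels above the olfactory receptor percentile on every wild-type array, and 10 to 12 on the knockout arrays. Their summed log2 level was 111.1, 111.7 and 107.6 in the knockout, against 112.1, 111.2 and 109.9 in the wild type, lowest on knockout 3. The 11 measured mast cell and basophil markers ran the other way, with sums of 96.98, 96.997 and 100.4 in the knockout, against 98.6, 96.03 and 97.03 in the wild type. The 15 neutrophil markers summed to between 151.3 and 153.3 in the knockout, against between 149.5 and 152.4 in the wild type, and all lay above the percentile on every array. The 10 dendritic cell markers summed to between 73.5 and 74.3 in the knockout, against between 73.6 and 74.7 in the wild type. B lymphoid markers and T and NK markers exceeded it in at most 3 of 5 and 4 of 9 genes on any array. Of the 12 monocyte markers 4, 33.3%, were above 0, against 39% of all genes. At an unadjusted p under 0.05 there were 2, 16.7% against 7.23% of all genes, in opposite directions. Adgre1, which encodes F4/80, had 9.86, 9.67 and 9.56 in the knockout, against 10.49, 10.598 and 10.47 in the wild type. Its difference of −0.82 had an adjusted p of 0.086 (limma) and passed in 4 of the 15 alternative fits, with adjusted p-values of 0.0243 to 0.0338. Ccr2, a chemokine receptor of inflammatory monocytes, differed by 0.25 (adjusted p = 0.655). Of the 15 neutrophil markers 11, 73.3%, were above 0, against 39% of all genes, and 4 were below. At an unadjusted p under 0.05 there were 4 of the 15, 26.7% against 7.23% of all genes. Mpo, S100a9 and Mmp8 were higher and Lcn2 was lower, and the smallest adjusted p of the list was 0.538 (limma). Fcer1a, a subunit of the IgE receptor of mast cells and basophils, had 9.23, 8.97 and 9.67 in the knockout, against 8.49, 7.97 and 8.48 in the wild type (difference 0.98, adjusted p = 0.392), so this marker was higher on all knockout arrays and not on knockout 3 alone. Its list did not share that direction, with 5 of 11 markers above 0, 45.5% against 39% of all genes, and 6 below. At an unadjusted p under 0.05 there were 2 of them, 18.2% against 7.23% of all genes, in opposite directions. These were Fcer1a and Prss34, which differed by −0.47 (limma, adjusted p = 0.659). The part of these cell types in the levels of the Toll-like receptors was not tested, and in bulk RNA fewer cells of a type and less RNA per cell cannot be told apart.

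Genes around the listed ones gave the same count of calls, 0 by limma in each of 4 further lists. Co-receptors and chaperones of the Toll-like receptors had 6 of 12 measured genes above 0, 50% against 39% of all genes, and a median of −0.01. The lipid receptor Cd36 had 6.05, 6.12 and 5.43 in the knockout, against 6.48, 6.80 and 6.23 in the wild type (difference −0.63, adjusted p = 0.578). Ly86, a partner of the receptor relative Cd180, had 8.42, 8.76 and 7.76 in the knockout, against 7.82, 7.97 and 7.75 in the wild type, so that knockout 3 again lay with the wild type. Further NF-kB signalling genes had 8 of 22 above 0, 36.4% against 39% of all genes, and a median of −0.04. At an unadjusted p under 0.05 2 of them were lower, 9.09% against 5.44% of all genes. One was Traf1, an NF-kB-induced signalling adaptor, with 6.51, 6.61 and 6.49 in the knockout, against 6.74, 6.81 and 6.91 in the wild type (difference −0.28, adjusted p = 0.486). The other was Pdlim2, which promotes the degradation of nuclear p65, at −0.18 (adjusted p = 0.659). Inflammasome genes had 6 of 8 above 0, 75% against 39% of all genes, and a median of 0.05, with Il1b at 0.24 (adjusted p = 0.855). NF-kB target genes had 7 of 29 above 0, 24.1% against 39% of all genes, and a median of −0.06, and 2 of them, 6.90%, were lower at an unadjusted p under 0.05, near the 5.44% of all genes. These were the chemokine genes Ccl3, with 11.57, 11.61 and 11.76 in the knockout, against 11.91, 11.80 and 12.04 in the wild type, and Ccl4, which differed by −0.30. All knockout arrays were below all wild-type arrays in both, and neither passed (adjusted p = 0.596 and 0.605). These were the only target genes so separated, 6.9% of that list, under the 10.4% of all genes that were separate and lower. In the other lists 3 of 12 co-receptors and chaperones, 25%, and 4 of 22 NF-kB signalling genes, 18.2%, were separate and lower. Of the 8 inflammasome genes 0 were.

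Hoxa9 and Meis1, the genes carried by the vectors, had mean levels of 13.19 and 11.73 in the knockout, against 13.27 and 11.80 in the wild type, with differences of −0.07 in each and intervals of −0.24 to 0.09 and −0.26 to 0.12. Whether the signal comes from the vectors or from the endogenous genes cannot be read from these rows.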

How the data were processed

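Messenger RNA was measured on 6 Affymetrix arrays, grouped by the sample titles. The deposited table holds log2 expression values that the authors made with Expression Console and RMA, according to the submitters' processing notes. The sources used here give no version or settings. The RMA step gives arrays like distributions and hides changes in RNA per cell. Of 23332 rows, 14996 had 1 gene symbol in the platform annotation, 1019 had several and 7317 were unnamed here. Per gene the row with the highest mean was used, and each of the 43 measured members had 1 row. Knockout was compared with wild type over all 14860 genes in R 4.3.3 with limma 3.58.1 (lmFit, eBayes, no filter), with two-sided Benjamini-Hochberg p-values over all genes called under 0.05. With 3 arrays a group, exact permutation reaches 0.1 at best and was not used. No 2 arrays were identical, and the array number limits the precision. The fit was tested on simulated data. All 48 members could be named, with up to 4 genes of smallest p from each other list. Members, lists and alternatives were chosen with earlier results of these data known. Promoter matches were found in RefSeq windows, and figures drawn with Python 3.11.15 and matplotlib 3.10.9.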

Additional observations from a re-analysis of the deposited data

How the results depend on the processing

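No member passed the adjusted limma test under any of the 15 other fits, which changed the scaling, array weights, level filter, rows per gene or variance model or left out 1 array, nor at an adjusted p under 0.1. The lowest adjusted p of a member was 0.24, with array weights. At an unadjusted p under 0.05 there were 3 members, 6.98%, all lower, and 1074 genes, 7.23%. The members' count was 9 without knockout 3 (6 higher, 20.9% in all against 7.72% of all genes) and 7 with array weights (4 higher, 16.3% against 14%). It was 6 after further quantile normalisation (3 higher, 14% against 6.14%) and 5 without knockout 2 (0 higher, 11.6% against 6.68%). Under the other fits it was 2 to 4, or 4.65% to 11.8% against 4.97% to 9.93% of all genes. The count over all genes, 4, was 2 after median centring, 16 with array weights, 14 and 13 under the filters on level, 9 with a variance trend and 12 at an adjusted p under 0.1, and it ran from 0 to 1 with 1 array left out. The median difference of the members stayed between −0.08 and 0.004, and the cause of its movement was not tested. Surface receptors kept a positive median (0.04 to 0.21) and the IkB proteins and brakes a negative one (−0.13 to −0.06) under all fits. Array weights turned Tlr13 to 0.12, Myd88 to −0.0056, Tab1 to 0.030 and Casp1 to 0.035. With 1 array left out, sign changes were seen in Tlr1 (−0.043 to 0.12), Tlr4 (−0.079 to 0.16), Tlr3 (−0.11 to 0.047), Tlr8 (−0.18 to 0.40), Tlr11 (−0.18 to 0.067), Tlr13 (−0.28 to 0.24), Myd88 (−0.038 to 0.10), Tab1 (−0.058 to 0.0080), Nlrp3 (−0.11 to 0.27), Casp1 (−0.18 to 0.091), Bcl10 (−0.055 to 0.16), Nfkb2 (−0.0034 to 0.033), Cyld (−0.079 to 0.13), Tnf (−0.0032 to 0.091) and Nek7 (−0.020 to 0.15). No paired analysis was possible because the wild-type titles all carry the same number. The number of arrays and the missing detection calls limit what can be said of the dim receptors.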
